A study of Mus musculus with 30 samples.

Results

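T cell receptor variable segments, the gene pieces that give each receptor chain its variable region, were followed through 30 mouse RNA-seq libraries. Every gene symbol starting with Trav (alpha chain) or Trbv (beta chain) was taken, which gave 165 of the 55291 symbols measured: 130 Trav and 35 Trbv. The libraries came from 10 tumour lines grown under the skin, 3 per line, and are labelled as CD45+ immune cells that had infiltrated tumours that had grown to 10 mm. OK-432 is a preparation of killed streptococci used to stimulate immunity. The labels name mice given OK-432 in the tumour for 24 hours and mice without it, and hosts of the BALB/cJ and C57BL/6J strains, but tie neither to a library, so neither was used as a group.

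The lines were sorted by the strain in which each is known to have arisen, which is textbook knowledge and not in the labels. Lines of BALB/c origin were EMT6 (mammary carcinoma), CT26NYESO1 (CT26 named for the human antigen NY-ESO-1), CT26 (colon carcinoma), CMS5a (fibrosarcoma) and Renca (renal carcinoma). Lines of C57BL/6 origin were MC38OVA (MC38 named for ovalbumin), MC38 (colon carcinoma), LL2 (Lewis lung carcinoma), and B16F10 and B16F1 (sublines of a melanoma). Each line is a single cultured tumour, and effects of the strain and of the tumours themselves cannot be told apart.

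A T cell assembles each receptor chain by joining one variable segment to downstream pieces and a constant gene, so a clone that expands raises the transcript level of its own alpha and beta segment together. Mouse alpha segments lie in a cluster that was duplicated during evolution, and the copies carry a d or an n in their names. Segments whose names end in dv can be joined to alpha or delta constant genes. T cells bearing certain beta segments are deleted in the thymus of BALB/c mice, where superantigens of endogenous mammary tumour viruses are presented by the class II molecule I-E, which C57BL/6 mice lack.

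The ends of the segments that the results turn on are printed here as the last 60 coding bases, read 5′ to 3′ on the coding strand of mouse build GRCm38 with the GENCODE M21 annotation, and the capitals mark the codon of the conserved cysteine at which the most variable loop of the receptor begins. The first 5 are the beta segments of superantigen-reactive T cells, of which Trbv12-1 and Trbv12-2 are 88.2% identical over their aligned coding sequences.
Trbv26: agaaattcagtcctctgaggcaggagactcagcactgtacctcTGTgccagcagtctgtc
Trbv12-1: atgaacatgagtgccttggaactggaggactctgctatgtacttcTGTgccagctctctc
Trbv12-2: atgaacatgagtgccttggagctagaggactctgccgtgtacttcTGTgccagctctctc
Trbv15: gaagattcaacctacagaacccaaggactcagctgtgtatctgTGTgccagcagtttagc
Trbv16: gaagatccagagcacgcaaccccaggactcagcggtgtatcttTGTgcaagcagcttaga
The next are the beta segment with the highest mean share, its close relative Trbv13-1 (87.9% identical to it), the next most used segment, and Trbv31, which was higher in both antigen-bearing lines.
Trbv13-2: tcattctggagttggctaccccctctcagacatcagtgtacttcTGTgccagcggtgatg
Trbv13-1: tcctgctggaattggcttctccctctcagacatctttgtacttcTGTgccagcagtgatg
Trbv5: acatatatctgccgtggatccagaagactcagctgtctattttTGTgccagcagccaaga
Trbv31: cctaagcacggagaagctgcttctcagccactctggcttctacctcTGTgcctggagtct
The last are Trav14-2, the alpha segment that rose in MC38OVA, and a pair that shows how alike alpha copies are, since Trav7-2 and Trav7d-2 differ at 1 aligned coding position, the added final base of Trav7d-2.
Trav14-2: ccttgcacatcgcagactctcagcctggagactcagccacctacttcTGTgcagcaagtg
Trav7-2: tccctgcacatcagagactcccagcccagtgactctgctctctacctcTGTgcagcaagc
Trav7d-2: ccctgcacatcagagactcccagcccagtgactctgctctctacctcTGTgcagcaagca
Trbv13-2 lies at chr6:41121396-41121832 on the plus strand, Trbv31 at chr6:41557691-41558452 on the minus strand, Trav7-2 at chr14:53390635-53391142 and its copy Trav7d-2 at chr14:52683964-52684472, both on the plus strand, and each is annotated as a functional variable segment.

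Values are TPM (transcript abundance scaled for length and library total), which hold no read counts, so the depth of a library and the precision of a single low value are unknown. Ptprc, the gene of CD45, was measured in every library, from 2.7 to 215 TPM, and tumour markers were present beside it: Pmel, a melanosome gene, averaged 2833 TPM in B16F10 and 698 TPM in B16F1, and the epithelial keratin Krt8 averaged 926 TPM in Renca and 610 TPM in EMT6. H2-Ea, the alpha chain of I-E, lay between 21.2 and 472 TPM in the 15 libraries of BALB/c origin and was listed at 0 in all 15 libraries of C57BL/6 origin. The 7 receptor genes outside the segments (Trac, Trbc1, Trbc2, Cd3d, Cd3e, Cd3g and Cd247) summed to line means between 13.1 TPM in B16F10 and 145 TPM in MC38OVA.

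Segment transcripts were detected in all 30 libraries, at low levels. The summed Trav level ran from 0.497 TPM in B16F1 replicate 1 through a median of 10.7 TPM to 44.6 TPM in MC38OVA replicate 2. The summed Trbv level ran from 1.15 TPM in EMT6 replicate 1 through a median of 13.96 TPM to 61.8 TPM in MC38OVA replicate 3. MC38OVA had the highest line means of both loci, with 38.5 ± 5.68 TPM of Trav and 47.6 ± 12.8 TPM of Trbv (SD, n = 3). Renca had the lowest, with 2.86 ± 1.10 TPM of Trav and 3.79 ± 1.57 TPM of Trbv. Replicates of a line could differ widely: summed Trbv was 2.49, 16.6 and 1.52 TPM in the 3 B16F1 libraries and 2.53, 3.22 and 14.02 TPM in the 3 B16F10 libraries. In RNA from mixed cells, fewer T cells and less receptor RNA per cell cannot be told apart.

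**Figure D1:**
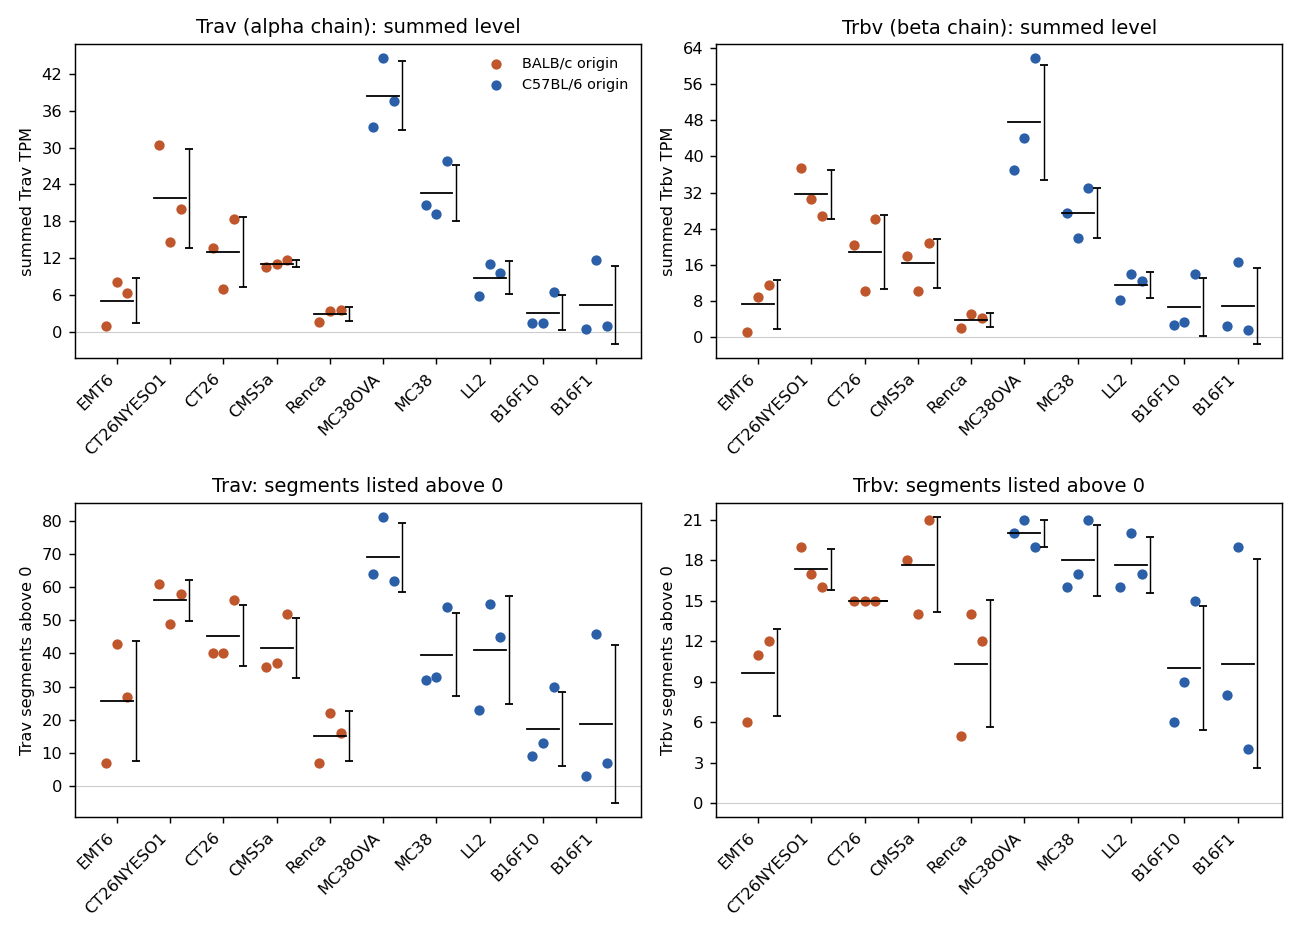
Summed TPM of the Trav and Trbv segments (top) and number of segments listed above 0 (bottom) in each library, by tumour line. Points are libraries, black lines the line means and bars the SD over 3 libraries, some of which reach below 0; MC38OVA holds the highest line mean in each panel.

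The number of segments listed above 0 varied as widely. It lay between 3 and 81 of the 130 Trav segments (median 38.5) and between 4 and 21 of the 35 Trbv segments (median 15.5). MC38OVA libraries listed 64, 81 and 62 Trav segments, and Renca libraries 7, 22 and 16. Libraries with alike sums did not always list alike numbers. MC38 replicates 1 and 2 had 20.7 and 19.3 TPM of Trav over 32 and 33 segments, against 20.02 TPM over 58 segments in CT26NYESO1 replicate 3 and 18.4 TPM over 56 segments in CT26 replicate 3. The effective number of segments, the count of equally used segments that would give the same Shannon entropy, was 20.4 ± 2.88 in MC38 for Trav and lay above it in CT26NYESO1, at 30.3 ± 3.42, and in MC38OVA, at 40.8 ± 4.82 (SD, n = 3).

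The share of the top segment, in percent of the summed level of its locus, had a median of 15.1% for Trav and 21.8% for Trbv over the 30 libraries. For Trav it was highest in libraries with little receptor RNA: 46.6% in B16F10 replicate 1 (Trav4-4-dv10 at 0.661 of 1.42 TPM) and 43.3% in Renca replicate 1 (Trav13-2 at 0.686 of 1.59 TPM). A top share near these from such a level rests on a few segments just above 0. A pair of libraries with more receptor RNA had a dominant beta segment instead. Trbv15 held 59.5% of Trbv in B16F10 replicate 3, at 8.34 TPM, while it was listed at 0 in replicates 1 and 2 of B16F10. Trbv5 held 45.7% in MC38 replicate 1, at 12.5 TPM, with 2.77 and 4.52 TPM in replicates 2 and 3 of MC38. Neither library had a single alpha row of such size, the top Trav shares being 9.60% in B16F10 replicate 3 and 14.5% in MC38 replicate 1. In MC38 replicate 1, however, the top row Trav7-2 and its near-identical copy Trav7d-2 each held 14.5%. The share of the top row alone thus understates this pair, although together they stayed below the 45.7% of Trbv5. The most even beta use was in MC38OVA replicate 2, whose top segment Trbv31 held 11.8%.

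**Figure D2:**
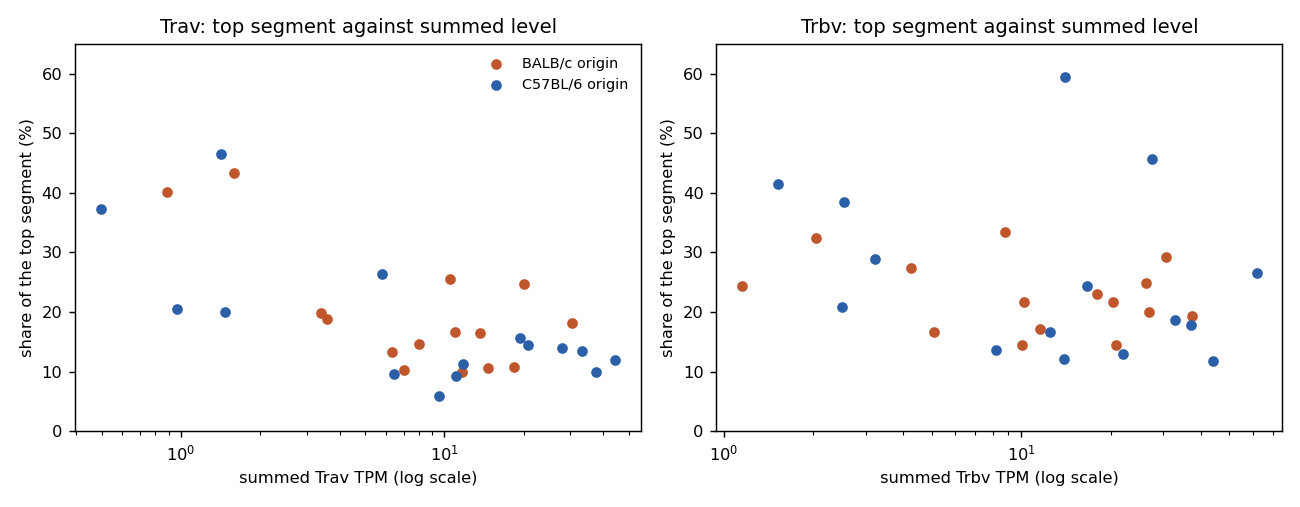
Share of the most used segment against the summed TPM of its locus (log axis), 1 point per library, for Trav (left) and Trbv (right). The 2 highest Trbv shares, 59.5% and 45.7%, lie at sums of 14.02 and 27.4 TPM, while the highest Trav shares lie at sums under 2 TPM.

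The same beta segment led 5 of the 10 lines. Trbv13-2, used by a large part of conventional T cells and by many invariant natural killer T cells, had the highest mean share over the 30 libraries (13.8%) and led 11 of them. The 5 lines it led by mean share were CT26NYESO1 (20.4 ± 8.55%), CT26 (16.6 ± 7.29%), CMS5a (19.7 ± 4.60%), Renca (21.6 ± 9.35%) and MC38OVA (18.5 ± 7.67%; SD, n = 3). Its level in every library of the strongest lines was 4.55, 8.91 and 5.37 TPM in CT26NYESO1, and 6.62, 4.94 and 16.4 TPM in MC38OVA. After it came Trbv5 with a mean share of 10.3%, Trbv13-1 with 7.37%, Trbv19 with 6.78% and Trbv29 with 6.75%. The share of Trbv5 varied widely between libraries. It led EMT6 at 16.2 ± 16.7% and MC38 at 24.0 ± 18.7%, and came next after the leader in B16F10 (16.3%) and B16F1 (15.4%). In Renca it held 27.5% in replicate 3 and was listed at 0 in both other libraries. LL2 was led by Trbv12-2 at 11.7 ± 1.69%, B16F10 by Trbv15 at 19.8 ± 34.3% and B16F1 by Trbv20 at 16.7 ± 21.9%, the last 2 each mainly through 1 library. Altogether 12 Trbv segments led at least 1 library.

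**Figure D3:**
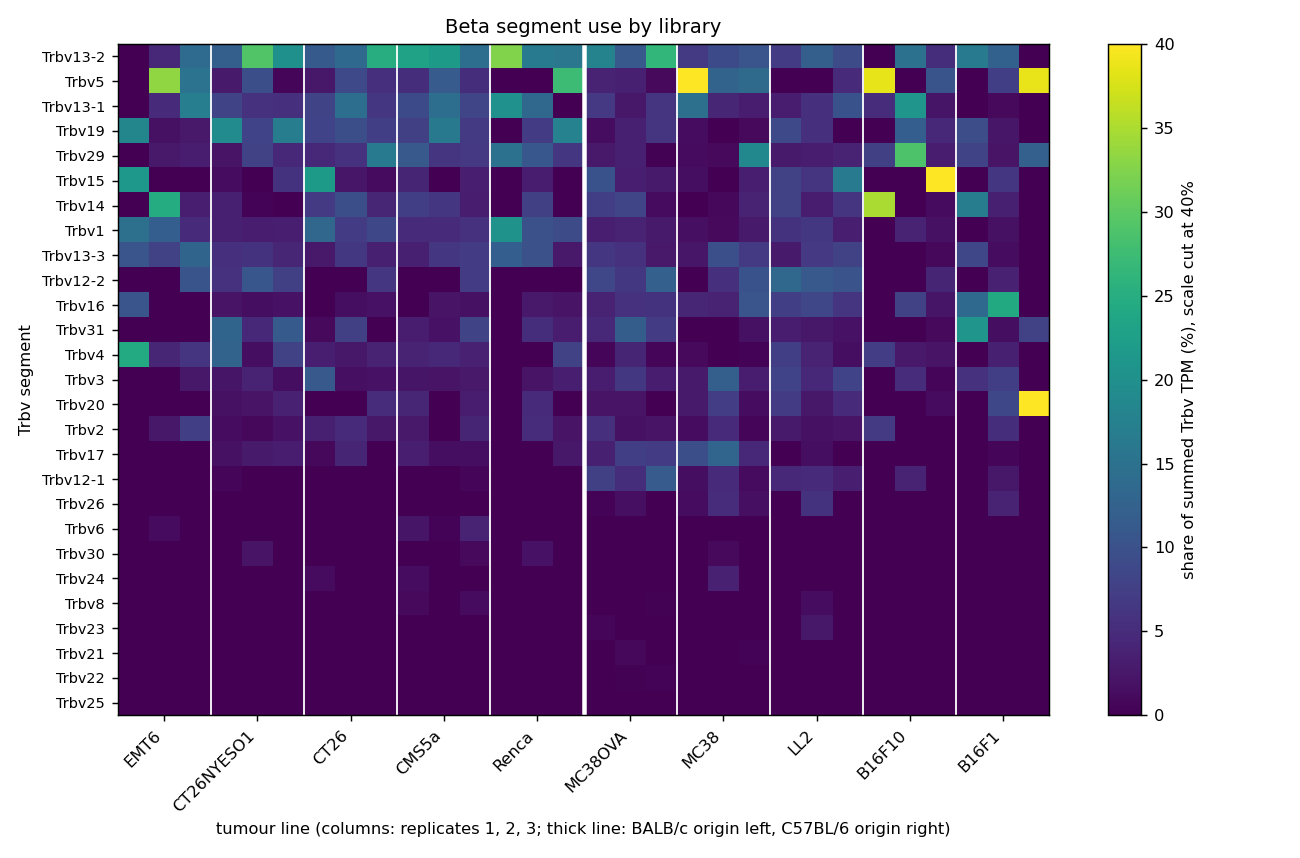
Share of summed Trbv TPM (colour, percent, cut at 40%) of the 27 Trbv segments listed above 0 in any library, sorted by mean share, with 1 column per library. Trbv13-2 and Trbv5 head the list; Trbv12-1 and Trbv26 are dark in nearly all columns of BALB/c origin.

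Alpha segments were spread more thinly, and 15 of them led at least 1 library. Trav13-2 had the highest mean share over all libraries (5.09%), with 2.68, 1.83 and 1.02 TPM in CMS5a and 0.686, 0.677 and 0.185 TPM in Renca. It held the highest mean share of both lines, 17.0 ± 8.37% in CMS5a and 22.8 ± 19.2% in Renca (SD, n = 3). Trav3-3, next at 4.75%, led CT26NYESO1 (16.2 ± 9.80%; 5.55, 0.808 and 4.96 TPM) and CT26 (12.2 ± 3.72%; 2.25, 0.660 and 1.98 TPM). Its high value in CT26NYESO1 replicate 1 was the highest of any Trav segment in any library. Trav15n-1 led MC38 at 11.4 ± 4.34% and MC38OVA at 4.83 ± 3.42%, Trav13-4-dv7 led LL2 at 11.7 ± 12.9% through replicate 1 (1.53 TPM), and Trav15-1-dv6-1 led EMT6 at 13.8 ± 22.8% through replicate 1, which held 0.885 TPM of Trav in all. Trav4-4-dv10 led B16F10 (16.6 ± 26.0%) and Trav7-2 led B16F1 (14.4 ± 19.99%), both mainly through a library under 2 TPM of Trav. Trav4-4-dv10, Trav16n and Trav7-2 completed the 5 alpha segments with the highest mean shares, at 3.45%, 3.24% and 3.11%. The remaining leaders, Trav16n in 4 libraries and Trav7-3, Trav14d-3-dv8, Trav6-2, Trav14n-3, Trav8d-1, Trav12-2 and Trav6-6 in 1 each, reached between 0.197 and 4.47 TPM in the libraries they led.

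Duplicated alpha copies limit how far a single Trav row can be read. Of the Trav rows, 74 were d or n copies, and 83 pairs of copies had a median identity of 97.6% over the aligned coding sequence, with 15 pairs identical. Trav7-2 and Trav7d-2, printed above, had values within 5% of each other in 13 of 13 libraries that listed either, for example 3.007 and 2.998 TPM in MC38 replicate 1. Their levels are therefore uncertain one by one, and summed with its copies the Trav7-2 family held 19.0% of Trav in MC38, beside 21.5% for the Trav15-1 family. The number of differences did not fix how alike the values were. Trav13-2 differed from Trav13d-2 at 11 aligned positions and lay within 5% of it in 0 of 21 libraries, whereas Trav6d-7 and Trav6n-7 differed at 12 and lay within 5% in 12 of 23. Trav13d-1 and Trav13n-1 differed at 1 position and lay within 5% in 0 of 5 libraries.

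Averaged over all lines, replicates of a line resembled each other only a little more than libraries of other lines, and lines differed in this. Agreement was measured as the overlap of 2 libraries, the sum over segments of the smaller of the 2 shares, which is 100% for identical use. For Trbv the 30 replicate pairs averaged 52.4% (15.4% to 79.6%) and the pairs across lines 45.5% (0% to 79.8%). For Trav the replicate pairs averaged 27.7% (0% to 58.6%) and the pairs across lines 19.6% (0% to 60.9%). The pairs share libraries and are not independent, so no test is attached to these means. The single most alike pair was CT26 replicate 3 with CMS5a replicate 1 for Trbv, and CT26NYESO1 replicate 2 with CMS5a replicate 3 for Trav, both across lines. Only 8 of 30 libraries for Trbv, and 7 of 30 for Trav, had a replicate of their own line as the closest library.

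**Figure D4:**
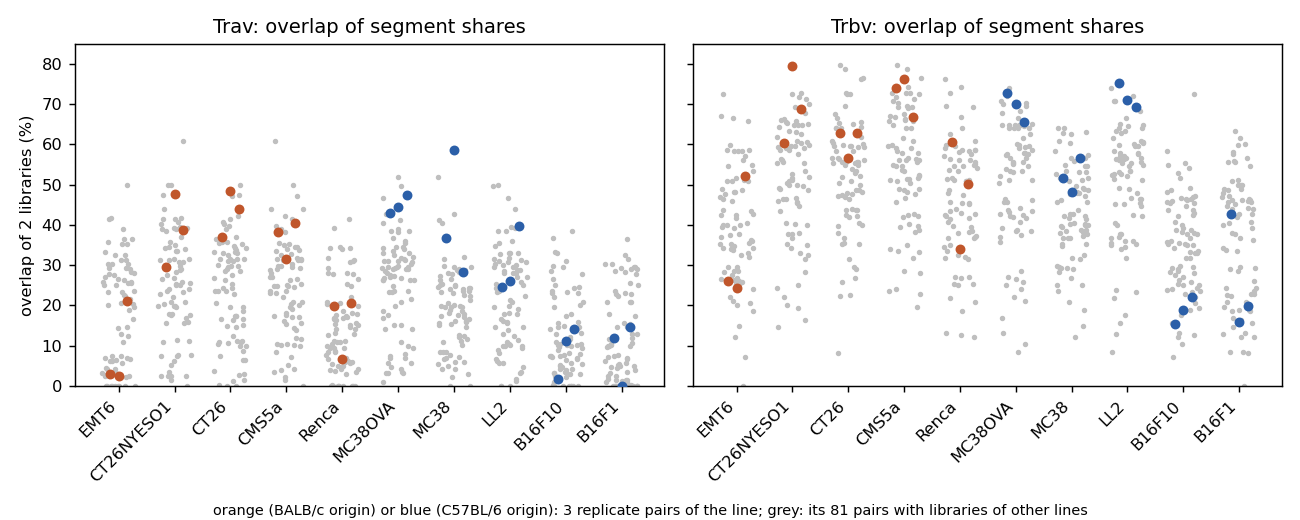
Overlap of segment shares (percent) between 2 libraries, for Trav (left) and Trbv (right). Coloured points are the 3 replicate pairs of each line and grey points its 81 pairs with other lines. The replicate pairs of CMS5a and LL2 lie high for Trbv and those of B16F10 lie among the grey points.

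Agreement differed between lines. Beta overlap within a line averaged 72.4% in CMS5a, 71.8% in LL2, 69.6% in CT26NYESO1 and 69.5% in MC38OVA, against 34.1% in EMT6, 26.2% in B16F1 and 18.7% in B16F10. In the same order, pairs of these lines with libraries of other lines averaged 54.2%, 49.8%, 50.9% and 49.9%, against 39.4%, 35.8% and 34.9%. CT26 (60.9%), Renca and MC38 also lay above their means with other lines, of 52.0%, 45.5% and 42.7%. For Trav, EMT6, B16F1 and B16F10 likewise lay below their means with other lines, and the remaining lines above. EMT6, B16F1, B16F10 and Renca each held at least 1 library with under 3 TPM of Trbv. Renca had the lowest line mean of Trbv and an overlap of 48.3%. Whether overlap follows the level of Trbv was not tested. MC38 averaged 52.1%. Its 3 libraries held 27.4, 21.9 and 32.9 TPM of Trbv, and each had a different top beta segment: Trbv5, Trbv17 and Trbv29. Its alpha overlap of replicates 1 and 3, at 58.6%, was the highest of any replicate pair, and both were led by Trav7-2 with its copy. Pairs of libraries from different lines overlapped by 22.9% for Trav when the lines shared a strain of origin and by 16.9% when they did not, and by 47.9% and 43.7% for Trbv.

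Of the 165 segments, 30 (12 Trav and 18 Trbv) reached 1 TPM in at least 3 libraries and entered the limma fit of log2(TPM + 1) over 17944 genes. Between the 10 lines, 25 of the 30 differed by the F test of limma (Benjamini-Hochberg adjusted p under 0.05 and line means at least 1 apart on the log2 scale), or 83.3%, beside a background of 85.5% of all genes tested. The median distance between the highest and lowest line mean was 1.48 (log2) for these members and 1.71 for all genes. Line differences of this kind were thus as common among segments as among other genes. The widest was that of Trbv13-2, with line means 2.75 apart (log2). Trbv29 and Trbv15 did not pass (adjusted p = 0.15 and 0.23 in limma), nor did Trav13-4-dv7 (0.15), whose MC38OVA libraries held 0.120, 5.33 and 0.307 TPM.

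The 5 beta segments of superantigen-reactive T cells made up less of the Trbv level in libraries of BALB/c origin than in those of C57BL/6 origin. Their summed share had a lowest value of 0%, a median of 9.54% and a highest value of 31.9% in the 15 libraries of BALB/c origin, against 0%, 26.9% and 65.8% in the 15 of C57BL/6 origin. The groups overlapped. Line means were 14.1 ± 16.3% in EMT6, 12.4 ± 2.84% in CT26NYESO1, 11.7 ± 9.16% in CT26, 6.37 ± 5.69% in CMS5a and 2.67 ± 2.94% in Renca, against 28.5 ± 5.39% in MC38OVA, 18.3 ± 9.20% in MC38, 35.4 ± 1.76% in LL2, 25.8 ± 35.1% in B16F10 and 18.3 ± 20.9% in B16F1 (SD, n = 3). With only the 12 and 11 libraries that held at least 5 TPM of Trbv, a choice made after seeing the data, the medians were 9.62% in BALB/c origin and 32.4% in C57BL/6 origin.

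Single segments of this list differed in how far they were missing. Trbv26 was listed at 0 in all 15 libraries of BALB/c origin and above 0 in 7 of 15 libraries of C57BL/6 origin. These were MC38OVA replicates 1 and 2 (0.140 and 0.726 TPM), all 3 MC38 replicates (0.382, 1.12 and 0.533 TPM), LL2 replicate 2 (0.815 TPM) and B16F1 replicate 2 (0.665 TPM). It did not reach the level needed for the test. Trbv12-1 was above 0 in 2 of 15 libraries of BALB/c origin, at 0.232 TPM in CT26NYESO1 replicate 1 and 0.162 TPM in CMS5a replicate 3, against 11 of 15 of C57BL/6 origin, with a median of 0.390 and a highest value of 7.11 TPM. All 9 libraries of MC38OVA, MC38 and LL2 lay above both BALB/c values. Its relative Trbv12-2 was less restricted: it was above 0 in 6 libraries of BALB/c origin, including 2.16, 3.25 and 2.05 TPM in CT26NYESO1, against 10 of C57BL/6 origin with a median of 1.12 and a highest value of 7.59 TPM. Trbv16 was above 0 in 10 libraries of BALB/c origin, with a median of 0.143 and a highest value of 0.768 TPM, against 13 of C57BL/6 origin with a median of 0.866 and a highest value of 4.03 TPM. Trbv15 overlapped most, with a median of 0.238 TPM and a highest value of 4.43 TPM (CT26 replicate 1) in BALB/c origin, against a median of 0.829 TPM and a highest value of 8.34 TPM in C57BL/6 origin.

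**Figure D5:**
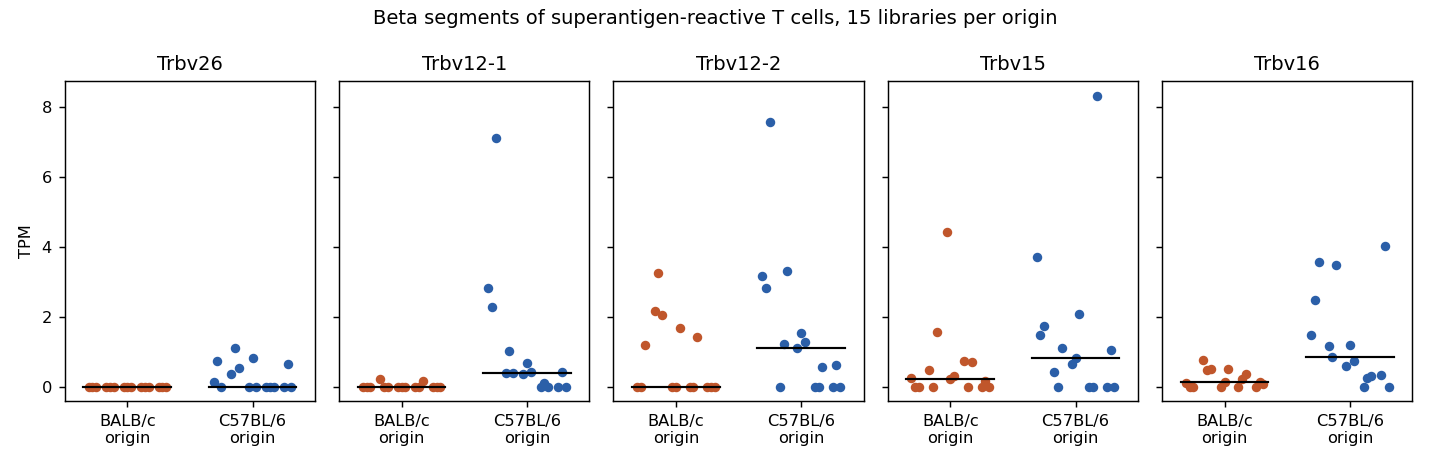
TPM of the 5 beta segments of superantigen-reactive T cells in the 15 libraries of BALB/c origin (left in each panel) and the 15 of C57BL/6 origin (right); points are libraries and lines are medians. Trbv26 is at 0 in every library of BALB/c origin, Trbv12-1 at 0.232 TPM or less, and the groups overlap most for Trbv12-2 and Trbv15.

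In limma, the mean of the BALB/c-origin lines minus that of the C57BL/6-origin lines reached the called size of 1 (log2) at an adjusted p under 0.05 for 0 of 30 segments in either direction, beside 10.7% of all genes (6.82% higher and 3.91% lower). There were 17 segments that had an unadjusted p under 0.05, a count for which the share of all genes is not given here. The count of 0 depends on the pseudocount: with 0.1 in place of 1, 3 segments were called higher and 7 lower. Without B16F10 and B16F1, 3 were called lower. The shares of all genes called under these settings are not given here, so these counts have no background beside them. By adjusted p alone, a rule chosen after seeing the data, 10 segments were lower (background 20.3% of genes) and 6 were higher (background 38.3%). Some of these segments had reached the filter of 1 TPM in a single origin only. For Trbv12-1, Trbv16, Trbv17, Trav15n-1 and Trav14-2 this was C57BL/6 origin, and for Trav13-2 it was BALB/c origin. The filter thus partly set their direction, and their adjusted p carry that limit. Trbv12-1 averaged 0.0262 TPM in lines of BALB/c origin and 1.07 TPM in lines of C57BL/6 origin, a log2 difference of -0.70 ± 0.09 (SE; limma adjusted p = 3.4e-07). Trbv16 averaged 0.222 and 1.37 TPM in the same order, a difference of -0.77 ± 0.16 (adjusted p = 2.0e-04). Trbv12-2 and Trbv15 had differences of -0.41 ± 0.20 and -0.46 ± 0.27 that missed the threshold (limma adjusted p = 0.075 and 0.14). The list was chosen for a known strain difference with results of these data in view, so its direction is not independent evidence. The 7 receptor genes outside the segments had log2 differences between -0.24 and 0.27 in this comparison, with none called. When the 5 line means on each side served as the replicates, none of the 16 segments passed (limma adjusted p 0.31 or more): they were larger than the spread between libraries, while with lines as replicates the threshold was missed.

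Beyond the list, the lower segments included several used mainly by the MC38 lines. Trav15n-1 ranged from 0 to 0.269 TPM in BALB/c origin, against 0.950, 3.91 and 1.07 TPM in MC38OVA and 2.45, 3.01 and 1.93 TPM in MC38, with a log2 difference of -0.59 ± 0.09 (limma adjusted p = 3.1e-06). In LL2, B16F10 and B16F1 it was at 0 in 8 of 9 libraries. Trbv17 had the same shape, with at most 0.865 TPM in BALB/c origin, 1.27, 3.29 and 4.39 TPM in MC38OVA and 2.62, 2.84 and 1.53 TPM in MC38, and at most 0.198 TPM in the other C57BL/6-origin lines. Among the higher segments, Trav3-3 differed by 0.62 ± 0.15, Trbv19 by 0.57 ± 0.14 and Trav13-2 by 0.49 ± 0.10 (limma adjusted p = 0.0011, 0.0013 and 1.7e-04). Without B16F10 and B16F1, 4 of the 6 higher segments missed the threshold in limma: Trbv19 (difference 0.41, adjusted p = 0.051), Trav21-dv12 (0.18, adjusted p = 0.18), Trbv4 (0.25, adjusted p = 0.24) and Trbv1 (0.02, adjusted p = 0.88). Trav13-2 was above 0 in 11 libraries of BALB/c origin, up to 2.68 TPM, and in 5 of C57BL/6 origin, up to 0.5996 TPM. Of the 141 segments listed above 0 in any library, 119 appeared in both origins, 9 only in libraries of BALB/c origin and 13 only in those of C57BL/6 origin. The shares of all genes listed in a single origin are not given here, so these counts have no background and are not read as an origin difference. Trav12-2, chosen after its values were seen, was at 0 in all 15 libraries of BALB/c origin and above 0 in 8 of 15 of C57BL/6 origin, up to 1.32 TPM.

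MC38OVA was set against its parent MC38, a comparison of an antigen-bearing line with the same tumour. Trbv31, a beta segment that lies beyond the constant genes in the opposite orientation, held 1.68, 5.21 and 4.41 TPM in MC38OVA and 0, 0 and 0.616 TPM in MC38. Trbv12-1 held 2.82, 2.30 and 7.11 TPM in MC38OVA and 0.390, 1.04 and 0.383 TPM in MC38. Trav14-2 held 1.54, 1.05 and 1.14 TPM in MC38OVA and 0, 0 and 0.266 TPM in MC38. In each of the 3 every MC38OVA library lay above every MC38 library. The 3 were picked because they were called, and such separation was not counted over all genes. The transgenic OT-I receptor, which recognises an ovalbumin peptide, is known to be built from segments of the Trav14 and Trbv12 groups, and bulk libraries do not show which alpha chain belongs with which beta chain. Trbv12-2, also of the Trbv12 group, was tested and not called with all libraries, and no Trav14 segment besides Trav14-2 entered the test. Whether ovalbumin-specific cells contributed to these levels was not tested.

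In limma these 3 segments rose: Trbv31 by 1.93 ± 0.30 (SE; adjusted p = 0.0017), Trbv12-1 by 1.57 ± 0.21 (adjusted p = 5.8e-04) and Trav14-2 by 1.05 ± 0.11 (adjusted p = 7.8e-06). They were 3 of 30 members, beside a background of 1.14% of genes higher, and 0 were lower (background 0.167%). Trav14-2 reached 1 TPM only in MC38OVA, so it entered the test through the line where it was high. Its rise, and its place in this count, were thus partly set by the filter. The median log2 difference was 0.48 over the 30 members and -0.03 over all genes. The 7 receptor genes outside the segments differed by 0.24 to 0.64, with none called, and their sum averaged 145 TPM in MC38OVA and 103 TPM in MC38. Trbv5 did not pass in the other direction: 1.41, 1.53 and 0.656 TPM in MC38OVA and 12.5, 2.77 and 4.52 TPM in MC38, a log2 difference of -1.60 ± 0.48 (limma adjusted p = 0.078), although it was called lower with a T cell score (mean log2 level of Cd3d, Cd3e, Cd3g and Cd247) as a covariate. Trav14-2 lay at the threshold of size, and its call was lost without MC38 replicate 1, without MC38 replicate 2, without MC38OVA replicate 1 and with median-ratio scaling. Trbv31 and Trbv12-1 stayed called with that covariate, and with every library left out in turn.

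CT26NYESO1 was set against CT26 in the same way. Trbv31 held 4.83, 1.42 and 3.04 TPM in CT26NYESO1 and 0.205, 0.769 and 0 TPM in CT26. Trbv19, known for its pairing with the alpha chain of mucosal-associated invariant T cells among many other uses, held 7.26, 2.45 and 4.53 TPM in CT26NYESO1 and 1.63, 0.961 and 1.92 TPM in CT26. For both, which were picked because they were called, the groups did not overlap, and such separation was not counted over all genes. In limma both rose, Trbv31 by 1.58 ± 0.30 (SE; adjusted p = 0.0010) and Trbv19 by 1.13 ± 0.32 (adjusted p = 0.038). They were 2 of 30 members, beside a background of 0.379% of genes higher, and 0 members were lower (background 1.89%). The median log2 difference was 0.16 over the members and 0.00 over all genes. The 7 receptor genes outside the segments differed by 0.27 to 1.19, with none called, and summed to 104 TPM in CT26NYESO1 and 60.03 TPM in CT26. The Trbv19 call was lost with the T cell score as a covariate and in 5 of the 6 fits that left out a library of either line, whereas Trbv31 stayed called in each of these. Trbv31 was thus higher in both antigen-bearing lines, and the difference between its changes in the MC38 and CT26 pairs was 0.35 ± 0.42 (log2, SE; limma adjusted p = 0.79). That test of the pairs called 2 of 30 segments with a larger change in the MC38 pair (Trbv12-1 and Trbv1), beside 2.22% of all genes, and 0 with a smaller one, beside 0.396%.

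No tested segment was called between B16F10 and B16F1. In limma 0 of 30 members were higher (background 4.53%) and 0 lower (background 16.4%), with 0 at an unadjusted p under 0.05. The spread within each subline was wide: the dominant Trbv15 of B16F10 replicate 3 stood at 8.34 TPM beside 0 and 0 TPM in its replicates, with 0, 1.06 and 0 TPM in B16F1. Trbv16 likewise reached 4.03 TPM in B16F1 replicate 2, beside 0.342 and 0 TPM in its replicates and at most 0.317 TPM in B16F10.

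Alpha segments of innate-like T cells were close to the limit of detection. Trav11 and its copy Trav11d, the segment of invariant natural killer T cells, were above 0 in the same 9 libraries, 6 of BALB/c origin and 3 of C57BL/6 origin, at no more than 0.370 TPM (MC38OVA replicate 1). They differ at 1 aligned coding position and were equal within 5% in all 9 libraries. Trav1, the segment of mucosal-associated invariant T cells, was above 0 in 8 libraries, 4 of each origin, with 0.999 TPM in MC38 replicate 3 and at most 0.236 TPM in the others. None of the 3 was listed above 0 in any Renca or LL2 library. The beta segments with which these alpha chains pair, Trbv13-1, Trbv13-2, Trbv13-3, Trbv29, Trbv1 and Trbv19, summed to between 1.58 TPM in B16F1 and 18.4 TPM in MC38OVA, but conventional T cells use them as well. Trbv1 and Trbv13-3 were above 0 in all 15 libraries of BALB/c origin and in 12 of 15 of C57BL/6 origin.

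Most segments contributed little. Of the Trav segments, 114 were above 0 in at least 1 library and 16 in none, while 0 were above 0 in all 30. Of the Trbv segments, 27 were above 0 in at least 1 library and 8 in none, and again 0 were above 0 in all 30. Annotated pseudogenes were almost silent, as 5 of 20 in Trav and 5 of 13 in Trbv were listed above 0, with highest values of 0.356 TPM for Trav8-2 and 0.836 TPM for Trbv6. Trbv6 was above 0 in 4 libraries, all of BALB/c origin.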

How the data were processed

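RNA-seq of 30 libraries was analysed from the TPM the authors deposited. Per the submitters' processing notes, these were made on mm10 with Trim Galore 0.6.5, STAR 2.7.3a and StringTie 2.1.2, and per the labels' protocols from stranded mRNA libraries of digested tumours. The annotation and use of strand are not given in the sources used here. TPM hold no depth, and reads of near-identical segments may be shared. The mm10 genome is that of C57BL/6J.

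Shares are percentages of summed Trav or Trbv TPM, computed here. Tests used limma 3.58.1 (R 4.3.3, trend in the variance) on log2(TPM + 1), with 1 mean per line and 20 residual degrees of freedom, for the 17944 genes that reached 1 TPM in 3 libraries, adjusted by Benjamini-Hochberg over all of them. SE are those of the fit. A fold change on this scale understates that of low genes. The procedure was tested on simulated data with independent noise and no spread between lines, where only genes of higher mean level were shifted. The simulation therefore does not speak to segments at low levels or to spread between lines. The labels do not give the animal behind each replicate, and p-values then measure the spread between these samples, which may be technical. Members and lists were chosen with earlier results of these data known. Segments named were those of the lists, the leaders of each line and library, the 5 most used per locus, and up to 3 called rises and falls per comparison; a few others are marked. Alternatives were pseudocount, filter, scaling, covariate, block, libraries or lines left out, and copies or subgroups summed. Gene models and sequences are from GENCODE M21 on GRCm38, which held 128 of 130 Trav and 35 of 35 Trbv symbols. Python 3.11.15, pandas 2.3.3 and matplotlib 3.10.9 were used.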

Additional observations from a re-analysis of the deposited data

Results flagged for a closer look

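In 2 segments the change from parent to antigen-bearing line differed between the MC38 and CT26 pairs, by a limma test of the difference itself. Trbv12-1 gave a difference of 1.47 ± 0.30 (log2, SE; adjusted p = 0.0039): it averaged 4.08 TPM in MC38OVA and 0.603 TPM in MC38, and was above 0 in 1 of the 6 libraries of the CT26 pair. Trbv1 gave a difference of 1.18 ± 0.33 (limma adjusted p = 0.041), with 1.23, 1.76 and 1.83 TPM in MC38OVA and 0.458, 0.232 and 0.955 TPM in MC38, but 1.30, 0.978 and 0.909 TPM in CT26NYESO1 and 2.68, 0.713 and 2.27 TPM in CT26. These were 2 of 30 members, beside a background of 2.22% of genes with a higher difference, and 0 were lower (background 0.396%). The Trbv1 call was lost with no filter, with the replicate block and without MC38 replicate 1 or 2, MC38OVA replicate 2 or 3, CT26 replicate 1 or 3, CT26NYESO1 replicate 2 or 3, B16F10 replicate 2 or EMT6 replicate 3. Both calls were lost with a pseudocount of 0.1. Part of Trbv12-1's difference from the CT26 pair cannot be told apart from its low level in all libraries of BALB/c origin.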

How the results depend on the processing

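Apart from the rule of adjusted p alone, the shares of all genes called under the settings of this section are not given here. Counts of called segments under them therefore have no background beside them. With the T cell score as a covariate, 18 segments differed between lines, against 25, with 8 lost and 1 gained. With a pseudocount of 0.1 in place of 1, 3 segments were higher and 7 lower in lines of BALB/c origin, against 0 and 0. Without B16F1 and B16F10, 3 were lower (Trbv12-1, Trbv16 and Trav15n-1). With all lines and by adjusted p alone, a rule added after seeing the data, 6 were higher (background 38.3% of genes) and 10 lower (background 20.3%). With the same covariate, 1 segment (Trbv5) was lower in MC38OVA than in MC38, and 1 was higher in CT26NYESO1 than in CT26, as with no filter (1). At 1 TPM or more, the median number of segments per library was 1.0 for Trav and 4.5 for Trbv. With segments summed into subgroups, the top Trbv share had a median of 32.2%, and Trav overlap was 53.7% within and 47.6% between lines; with copies summed it was 29.1% between lines. Among libraries with 5 TPM or more, overlap within lines was 38.2% for Trav and 65.3% for Trbv. The overlap between lines for this choice, and that within lines for summed copies, are not given here. These values therefore do not show how far replicates and other lines differ under those settings. The cause of these shifts was not tested beyond what each setting does. Leaving out each library in turn gave 22 to 26 segments differing between lines, 2 to 5 higher and 0 to 2 lower in MC38OVA (5 without MC38 replicate 3, 2 lower without MC38 replicate 2), 1 to 4 higher and 0 lower in CT26NYESO1 (4 without CT26NYESO1 replicate 2, 1 without CT26 replicate 1 or 2 or CT26NYESO1 replicate 1 or 3), 0 higher and 0 to 1 lower in B16F10 (1 without B16F1 replicate 3), and 0 by origin. Leaving out a replicate number moved overlap within and between lines over 24.6% to 30.9% and 16.9% to 24.8% for Trav, and 49.5% to 54.2% and 42.5% to 48.8% for Trbv. Median-ratio scaling moved the median log2 difference of all genes by origin to -0.0013, against 0.12, and between B16F10 and B16F1 to -0.091, against -0.25, and left 2 segments higher in MC38OVA, without Trav14-2. With the replicate number as a block, 25 segments differed between lines, 0 by origin, 3 were higher in MC38OVA, 3 in CT26NYESO1 and 0 in B16F10. The numbers pair nothing known: deviations of same-numbered libraries from their line means correlated by 0.0043 on average, and 12 of 30 libraries correlated best with their own number.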

Other observations

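Variable segments of the gamma and delta chains were read in the same libraries, and their levels were below those of the alpha and beta segments. Summed over 7 Trgv rows, the level averaged 6.00 ± 2.84 TPM in MC38OVA, 4.52 ± 0.54 TPM in CT26NYESO1 and 2.51 ± 0.12 TPM in MC38 (SD, n = 3). It averaged 1.17 ± 1.03 TPM in CT26, 1.60 ± 0.67 TPM in LL2, and under 1 TPM in EMT6, CMS5a, Renca, B16F10 and B16F1. The 6 Trdv rows were listed at 0 in all 6 libraries of B16F10 and B16F1 and averaged 4.51 ± 2.92 TPM in MC38OVA. CT26NYESO1 held 4.28, 5.15 and 4.15 TPM of Trgv, against 1.95, 0 and 1.56 TPM in CT26, without overlap, while Trdv overlapped between those lines. How often other genes separate these lines in this way was not counted. Trdc, the delta constant gene, averaged 1.47 TPM in CT26NYESO1 and 1.51 TPM in CT26.

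The ratio of summed Trbv to summed Trbc1 and Trbc2 had a median of 0.632 over the 15 libraries of BALB/c origin and of 0.974 over the 15 of C57BL/6 origin, with ranges of 0.226 to 0.980 and 0.216 to 1.44. Line means of this ratio overlapped between origins. They ran from 0.494 in Renca to 0.796 in CMS5a for BALB/c origin, and from 0.711 in MC38 to 1.33 in B16F10 for C57BL/6 origin. The ratio of summed Trav to Trac had medians of 1.24 and 1.23.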
